A study of Homo sapiens with 6 samples.

Results

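The genes described here encode the proteins of the mitochondrial ribosome. They were taken as every protein-coding row of the gene counts whose symbol is MRPL or MRPS followed by a number and, where present, a letter from A to C. This gave 78 of the 18118 genes counted, of which 77 passed the filter on low counts, among 14571 genes in all. By textbook knowledge of the structure, 51 of the 78 encode proteins of the large subunit, including MRPS18A and MRPS30 whatever their symbols say, and 26 encode proteins of the small subunit. The remaining gene, MRPS36, carries a ribosomal symbol, but its protein belongs to the 2-oxoglutarate dehydrogenase complex of the citric acid cycle. The genes lie on 21 chromosomes, with 8 on chromosome 17, the most on any.

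The study asked what the EWSR1::ATF1 (EA1) fusion transcription factor does in clear cell sarcoma (CCS), a soft tissue tumor defined by this fusion. RNA was sequenced from SU-CCS-1, an established human CCS cell line that carries EA1, after transfection with siRNA. There were 2 libraries with a negative control siRNA (siNeg1), 2 each with the EA1 siRNAs siEA1-1 and siEA1-2. By the study's methods the siRNA was used at 5 pmol per well for 48 h. Those methods describe a single siRNA against EA1, whereas the labels distinguish a pair, and they do not say which label it carries. The DESeq2 counts over all genes, given below, match the published knockdown comparison for siEA1-1 and not for siEA1-2. That the described reagent is siEA1-1 is not stated. All 6 libraries come from this line, a model of 1 tumor, and nothing in the labels says whether replicates were separate cultures, so the p-values below measure only the spread between these libraries, which may be technical.

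A mitochondrion keeps its own small genome, and its ribosome translates the few mRNAs of that genome, all of which encode subunits of the oxidative phosphorylation complexes. The RNA of this ribosome is transcribed from mitochondrial DNA, but every protein in it is encoded in the nucleus, translated in the cytosol and imported. Many of these proteins descend from those of a bacterial ribosome, while others were added during the evolution of mitochondria. Of the 51 large subunit genes, 30 have a bacterial counterpart and 21 do not; of the 26 small subunit genes, 16 have one and 10 do not.

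Library totals ran from 5942808 to 7599305 counts. ATF1, the 3′ partner of the fusion, whose count pools the fusion and the intact gene, had 549 and 680 counts in the control libraries, 149 and 123 with siEA1-1, and 122 and 159 with siEA1-2, so each knockdown library was below each control library. PMEL, SOX10 and S100B, markers of CCS and of the neural crest, were counted in every library, the lowest value being 189 counts of S100B, while MLANA had 0 to 24. Of 6 markers of leukocytes, endothelium and epithelium, CDH5 was the only one with a row, at 1 to 9 counts a library. siEA1-2 replicate 1 stood apart from its replicate in summed normalized CPM (counts scaled to a common library total) of 75 nuclear oxidative phosphorylation genes, 9688 against 7205, and of 8 CCS and neural crest markers, 10521 against 6896. The marker sum was higher in every knockdown library than in control, at 3045 and 2877 in control and 7665 and 7864 with siEA1-1. Of the 8 markers, 6 and 5 rose with siEA1-1 and siEA1-2, beside 20.0% and 18.7% of all genes tested. This shift accompanies every comparison with control, and its part in the results was not tested. Over the mitochondrial ribosomal protein genes the siEA1-2 libraries were at 3345 and 3156.

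The mitochondrial ribosomal protein genes fell more often than they rose upon knockdown of EA1, and the changes were small. Throughout, log2FC is control over knockdown, so a positive value is a gene that was lower after knockdown, and a gene is called when its adjusted p in the quasi-likelihood test of edgeR, adjusted by Benjamini-Hochberg over all 14571 genes, is under 0.05. With siEA1-1, 15 of 77 genes fell and 2 rose; over all genes tested 20.4% fell and 20.0% rose. With siEA1-2, 13 fell and 5 rose, beside 18.3% and 18.7% of all genes. The share of the 77 that fell, 19.5% and 16.9%, was thus near that of all genes, while the share that rose, 2.60% and 6.49%, was below it. The median log2FC over the 77 was 0.20 with siEA1-1 and 0.15 with siEA1-2, where the median over all genes was −0.02 and 0.00. Both comparisons use the same control libraries.

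Against the mean of both EA1 siRNAs, 16 genes fell and 4 rose, where 22.2% and 21.6% of all genes did. A log2FC past 1 in size was reached by 2 genes, MRPL14 with siEA1-1 and MRPL53 with siEA1-2. The median standard error of a log2FC was 0.150 and 0.147, so that many differences of this size are not detectable with 2 libraries a condition. In bulk RNA, fewer cells that express a gene and less RNA per cell cannot be told apart.

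These counts depended on single libraries. The numbers called over all genes also moved in the same fits, and whether those of the family moved more was not tested. Without control replicate 1 the median log2FC of the family was 0.186 with siEA1-1, 0.104 with siEA1-2 and 0.152 for the mean of both. Over all genes it was −0.031, −0.009 and −0.02 in that fit. Without siEA1-1 replicate 1 the family median was 0.174 with that siRNA, beside −0.006 over all genes. Without siEA1-2 replicate 1, the library that stood apart, the family median for the mean of both was 0.239, beside 0.022 over all genes. For siEA1-2 the family median was 0.207 without control replicate 2, 0.194 without siEA1-2 replicate 1, and 0.145 and 0.172 without siEA1-1 replicates 1 and 2. Over all genes it was 0.018, 0.035, 0.005 and 0.033 in those fits. DESeq2 gave 12 that fell and 1 that rose with siEA1-1, and 8 and 1 with siEA1-2. Over all genes DESeq2 gave 2451 and 2160, then 2066 and 2084. The counts for siEA1-1 equal the numbers of activated and repressed genes in the published knockdown comparison, and those for siEA1-2 do not. The split between directions moved with the scaling: upper quartile factors gave 14 that fell and 6 that rose with siEA1-1, and library totals gave 17 and 3 with siEA1-2. Over all genes, upper quartile factors gave 2654 that fell and 3274 that rose with siEA1-1. Library totals gave 2926 and 2401 of all genes with siEA1-2. The median log2FC of the 77 was above 0 in every setting tried.

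**Figure D1:**
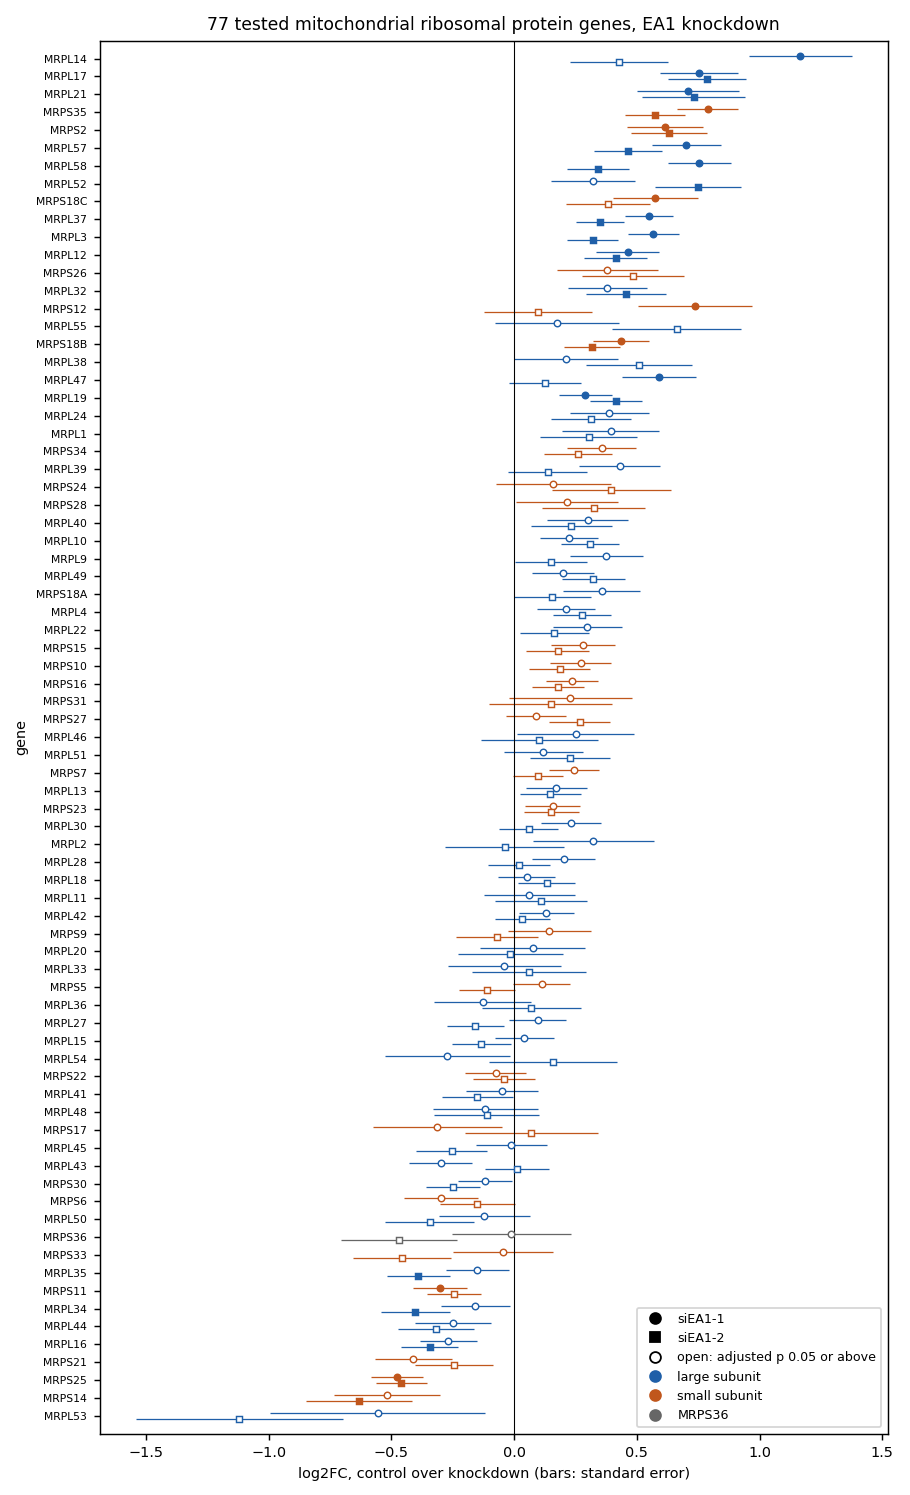
Log2FC, control over knockdown, of the 77 tested genes (rows, ordered by the log2FC for the mean of both siRNAs). Circles are siEA1-1, squares siEA1-2, bars the standard error, and filled symbols genes called at an adjusted p under 0.05; blue is the large subunit, orange the small subunit and grey MRPS36. More filled symbols lie right of 0 (15 and 13) than left of it (2 and 5).

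Of the genes that fell, 11 did so with both siRNAs: MRPL3, MRPL12, MRPL17, MRPL19, MRPL21, MRPL37, MRPL57, MRPL58, MRPS2, MRPS18B and MRPS35. Over all genes 15.2% fell with both and 14.9% rose with both, and the comparisons share their control libraries, so 11 of 77 is near the background, while 1 of 77, MRPS25, rose with both. In all 11 the lowest control library was above the highest of the 4 knockdown libraries, a pattern seen in 34 of the 77 genes and in 27.3% of all genes tested. The reverse, both control libraries below all 4 knockdown libraries, was seen in 11 of the 77 and in 28.1% of all genes. In the other 32 the control and knockdown libraries overlapped. The 6 with the largest log2FC for the mean of both siRNAs are described next, by subunit.

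MRPL17 (chr11:6680385-6683340, minus strand, hg38) encodes a large subunit protein with a bacterial counterpart. Its normalized CPM was 45.1 and 51.9 in the control libraries, 30.6 and 26.8 with siEA1-1, and 24.9 and 31.2 with siEA1-2. Every knockdown library was thus below both controls, and the siRNAs overlapped. The log2FC was 0.76 ± 0.16 (SE; adjusted p = 0.00211, edgeR) with siEA1-1 and 0.79 ± 0.16 (adjusted p = 0.00191, edgeR) with siEA1-2, levels of 59.2% and 58.0% of control.

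MRPL21 (chr11:68891276-68903835, minus strand), also of bacterial descent, was at 27.4 and 21.5 CPM in control, 16.1 and 13.7 with siEA1-1, and 16.9 and 12.6 with siEA1-2. Control replicate 2 was the lower control and the closest to the knockdown libraries, without overlap. The log2FC was 0.71 ± 0.21 and 0.73 ± 0.21. Without control replicate 1 the gene was no longer called with either siRNA (adjusted p = 0.150 and 0.147, edgeR), nor without siEA1-1 replicate 2 for that siRNA (0.113) or siEA1-2 replicate 2 for the other (0.0823).

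MRPL57 (chr13:21176658-21179084, plus strand), a small large subunit protein with no bacterial counterpart, was at 49.7 and 45.0 CPM in control, 30.4 and 27.7 with siEA1-1, and 33.8 and 34.7 with siEA1-2. Both siEA1-1 libraries were below both siEA1-2 libraries, but the difference did not pass the test (log2FC −0.24 ± 0.14, adjusted p = 0.451, edgeR). With siEA1-2 the call was lost without control replicate 1 (adjusted p = 0.125, edgeR) and in DESeq2 (0.0704).

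MRPL58 (chr17:75012670-75021261, plus strand) encodes a peptidyl-tRNA hydrolase that was built into the large subunit and that is known to release chains from stalled ribosomes. It was at 58.7 and 58.2 CPM in control, 36.5 and 32.6 with siEA1-1, and 43.8 and 48.3 with siEA1-2. Control replicates were close together, and the knockdown libraries were lowest with siEA1-1. The log2FC was 0.76 ± 0.13 (adjusted p = 0.000456, edgeR) with siEA1-1, called in each fit that leaves out a library, and 0.34 ± 0.12 (adjusted p = 0.0486, edgeR) with siEA1-2. The second of these was called in 1 of the 6 fits that each leave out a library, the one without siEA1-2 replicate 2, and missed the threshold in the others by adjusted p values from 0.0564 to 0.162.

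In the small subunit, MRPS35 (chr12:27710822-27756295, plus strand), which has no bacterial counterpart, was at 64.4 and 71.1 CPM in control, 40.8 and 37.5 with siEA1-1, and 43.6 and 47.3 with siEA1-2. All knockdown libraries were below both controls, those of siEA1-1 the lowest. The log2FC was 0.79 ± 0.12 (adjusted p = 0.000256, edgeR) and 0.57 ± 0.12 (adjusted p = 0.00275, edgeR). MRPS35 and MRPL17 were the genes called with both siRNAs in all of the 16 other settings tried for each.

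MRPS2 (chr9:135499984-135504673, plus strand), of bacterial descent, was at 49.7 and 48.5 CPM in control, 27.4 and 36.9 with siEA1-1, and 31.3 and 32.0 with siEA1-2. siEA1-1 replicate 2 was the highest knockdown library and still below both controls. The log2FC was 0.61 ± 0.15 and 0.63 ± 0.16 (adjusted p = 0.00690 and 0.00672, edgeR), and without siEA1-1 replicate 1 the call for that siRNA was lost (0.111). A length of 250 bases of its exons overlaps exons on the opposite strand, and whether the counting used strand is not stated.

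The other 5 genes that fell with both siRNAs had log2FC values between 0.29 and 0.57; of these MRPL3, MRPL19 and MRPL37 are named after their values were seen. MRPL12, part of the stalk that recruits translation factors and known also to bind the mitochondrial RNA polymerase, was at 50.4 and 47.7 CPM in control, 35.1 and 36.1 with siEA1-1, and 37.0 and 36.6 with siEA1-2. With siEA1-2 its call was lost after correction for GC content and length (adjusted p = 0.149, edgeR), in DESeq2 (0.0978), and without control replicate 1 (0.125) or 2 (0.0511). With siEA1-1 it was lost without control replicate 1 (0.0754) and without either siEA1-1 library (0.0855 and 0.0542). Of its 1009 exon bases, 701 overlap another annotated gene on the same strand.

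MRPL3, a core protein near the catalytic centre, was at 110.0 and 108.9 CPM in control, 72.1 and 75.8 with siEA1-1, and 82.8 and 92.4 with siEA1-2. MRPL37, without bacterial counterpart, had the highest control CPM of the 77, 135.6 and 142.1, and was at 96.7 and 93.0, then 106.3 and 111.6. In both, the knockdown libraries were all below control and those of siEA1-1 were the lowest. With siEA1-2, the call of MRPL37 was lost without control replicate 2 (adjusted p = 0.0691, edgeR) and that of MRPL3 was kept in 2 of the 6 fits without a library, those without replicate 2 of either EA1 siRNA. MRPL19 was the least changed of the 11 with siEA1-1, at a log2FC of 0.29 ± 0.11 (adjusted p = 0.0456, edgeR), a call kept in 2 of the 6 fits without a library, those without a siEA1-2 library.

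**Figure D2:**
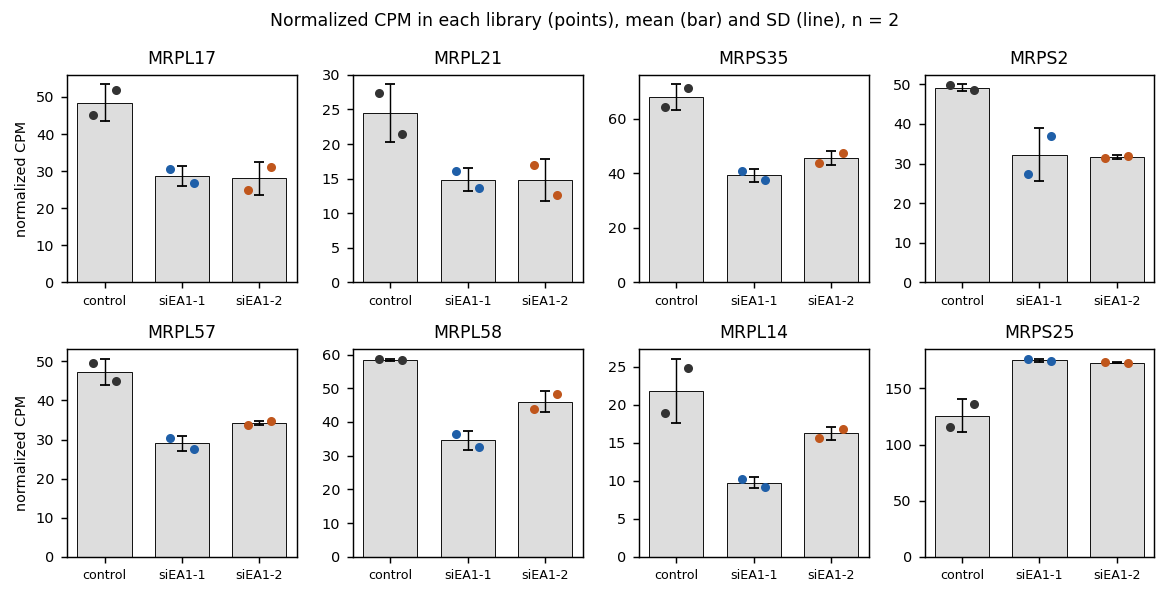
Normalized CPM of 8 genes (panels, vertical axes from 0) in the control, siEA1-1 and siEA1-2 libraries; points are libraries, bars the mean and lines the SD of 2 libraries. In MRPL17, MRPL21, MRPS35, MRPS2, MRPL57, MRPL58 and MRPL14 both controls lie above all 4 knockdown libraries, and in MRPS25 both lie below.

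The promoters of these genes are shown for what they hold in common with other mitochondrial ribosomal protein genes. ATF1 binds the cAMP response element (CRE), TGACGTCA, and ETS factors, NRF1 and YY1 are textbook regulators of nuclear genes for mitochondrial proteins. RefSeq promoter windows (GRCh38.p14), from 250 bases before to 50 after a start site, were matched by symbol to 69 of the 78 genes, of which some have several. Both strands were searched for the exact letters of 7 motifs. A match describes the letters only, and the windows below run from 100 bases before to 30 after the start, with every match in capitals.

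MRPS35, which fell with both siRNAs, had no match in its printed window, chr12:27710732-27710861 (plus strand). MRPL17 holds the NRF1 core on both strands, chr11:6683311-6683440 (minus strand), and the copies at its left end overlap. MRPL58 has an ETS site next to the start, chr17:75012570-75012699 (plus strand). One of the start sites of MRPS2 has an E-box, chr9:135499865-135499994 (plus strand).
MRPS35: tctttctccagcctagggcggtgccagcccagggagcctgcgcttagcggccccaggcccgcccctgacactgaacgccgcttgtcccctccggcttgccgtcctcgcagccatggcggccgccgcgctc
MRPL17: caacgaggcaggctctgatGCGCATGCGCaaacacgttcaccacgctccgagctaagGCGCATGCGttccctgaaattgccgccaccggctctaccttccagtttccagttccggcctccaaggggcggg
MRPL58: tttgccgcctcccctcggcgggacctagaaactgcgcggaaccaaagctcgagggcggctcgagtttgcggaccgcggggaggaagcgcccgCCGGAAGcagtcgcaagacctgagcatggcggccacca
MRPS2: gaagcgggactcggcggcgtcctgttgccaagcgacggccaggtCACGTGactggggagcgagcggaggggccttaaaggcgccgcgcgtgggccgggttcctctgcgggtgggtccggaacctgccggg

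MRPL47 and MRPL52, which fell with a single siRNA each, show the letters that recur in the family, the YY1 site and the ETS site. Their windows are chr3:179604609-179604738 (minus strand) and chr14:22829787-22829916 (plus strand). MRPS25, the gene that rose with both siRNAs, had no match, chr3:15065286-15065415 (minus strand). MRPL4, which was called with neither, is the gene with a CRE, chr19:10252114-10252243 (plus strand).
MRPL47: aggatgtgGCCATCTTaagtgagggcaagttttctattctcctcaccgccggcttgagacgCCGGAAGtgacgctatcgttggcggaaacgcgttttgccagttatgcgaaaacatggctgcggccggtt
MRPL52: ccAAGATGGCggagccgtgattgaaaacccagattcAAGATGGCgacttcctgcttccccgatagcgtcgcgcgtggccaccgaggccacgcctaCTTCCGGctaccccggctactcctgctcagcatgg
MRPS25: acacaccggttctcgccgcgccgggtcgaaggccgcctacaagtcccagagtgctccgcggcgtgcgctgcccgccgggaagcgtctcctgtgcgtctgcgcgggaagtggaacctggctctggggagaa
MRPL4: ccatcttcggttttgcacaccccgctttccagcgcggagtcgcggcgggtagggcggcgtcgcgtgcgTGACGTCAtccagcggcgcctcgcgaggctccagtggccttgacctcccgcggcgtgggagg

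The YY1 letters AAGATGGC were in the windows of 21 of the 69 genes (30.4%), where 6.69% of 9810 tested protein-coding genes and 2.89% of all 35116 RefSeq windows held them. The ETS letters CCGGAAG were in 30 (43.5%), against 23.2% of tested genes and 10.3% of windows. The end of the ETS letters and the start of the YY1 letters can share 3 bases; no window of the 69 had such a shared match, and 8 genes held both motifs. The CRE was in 1 of the 69 (1.45%), against 3.99% of tested genes and 1.85% of windows, and the AP1 letters TGAGTCA in 0, against 4.42% and 4.95%. The NRF1 core GCGCATGCG was in 3 (4.35%), MRPL17, MRPL22 and MRPS18C, against 4.30% and 1.92%. The E-box CACGTG was in 9 (13.0%, against 12.8% and 7.26%) and the CCAAT box in 23 (33.3%, against 44.1% and 34.6%).

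Of the 11 genes that fell with both siRNAs, 10 had a window, and MRPL21 had none. Among the 10, the ETS letters were in 2, MRPL3 and MRPL58, the YY1 letters in 1, MRPS18B, the E-box in 2, MRPL37 and MRPS2, the CCAAT box in 1, MRPL37, the NRF1 core in 1, MRPL17, and the CRE in 0. The letters that recur across the family were thus scarcer among these 10 than over all 69, as a description of few genes with no test.

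**Figure D3:**
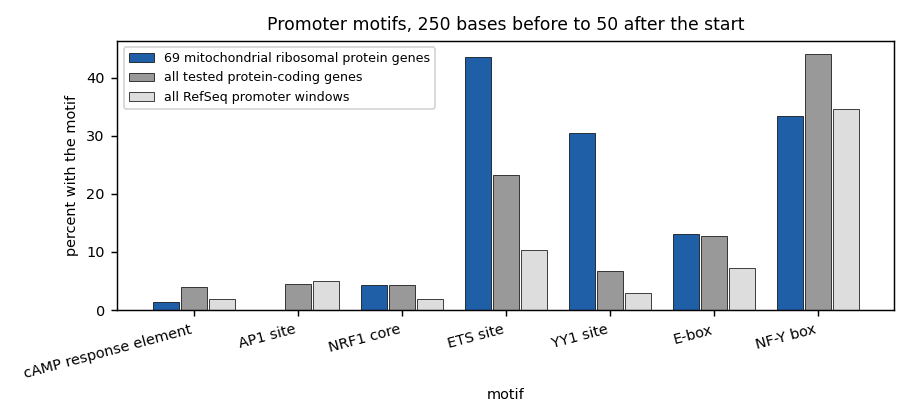
Percent of genes or windows with each of 7 motifs on either strand within 250 bases before to 50 after a RefSeq start; blue is the 69 mitochondrial ribosomal protein genes, dark grey all tested protein-coding genes, and light grey all RefSeq windows (the NF-Y box is the CCAAT box). The blue bars stand above the grey ones for the ETS site (43.5%) and the YY1 site (30.4%).

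Genes that fell with a single siRNA are named here after their values were seen, except MRPS18C. MRPL14, a bacterial-type protein of the face that meets the small subunit, had the largest log2FC of the family. It was at 18.9 and 24.8 CPM in control, 10.2 and 9.22 with siEA1-1, and 15.7 and 16.8 with siEA1-2. The siEA1-2 libraries lay between the other groups without overlap. The log2FC was 1.17 ± 0.21 (adjusted p = 0.000714, edgeR) with siEA1-1, a level of 44.6% of control, and 0.43 ± 0.20 (adjusted p = 0.115, edgeR) with siEA1-2.

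MRPL47 was at 36.4 and 36.1 CPM in control, 23.8 and 24.4 with siEA1-1, and 35.8 and 30.9 with siEA1-2. MRPS12, the bacterial-type protein of the decoding centre, was at 19.6 and 15.2, then 9.95 and 10.9, then 18.9 and 13.8. In both genes the siEA1-1 libraries were the lowest, and in MRPS12 the siEA1-2 libraries overlapped control. Without siEA1-1 replicate 1 neither was called (adjusted p = 0.0590 and 0.131, edgeR), and MRPS12 was also lost without control replicate 1 (0.175), without siEA1-1 replicate 2 (0.0674) and in DESeq2 (0.0616). MRPL52, a mitochondria-specific protein, showed the other order, with 36.4 and 27.9 CPM in control, 26.0 and 25.2 with siEA1-1, and 19.2 and 19.0 with siEA1-2. Its log2FC with siEA1-2 was 0.75 ± 0.18 (adjusted p = 0.00499, edgeR), lost without control replicate 1 (0.0672). MRPL32, whose precursor is known to be matured by a protease of the inner membrane, fell with siEA1-2 at 0.46 ± 0.16 (adjusted p = 0.0445, edgeR), a call kept in 2 of the 6 fits without a library, those without control replicate 2 or siEA1-2 replicate 1.

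None of the 77 passed the test of siEA1-1 against siEA1-2 in edgeR, where 2.65% of all genes did. Without adjustment 7 of the 77 had p under 0.05, a lower share than the 2484 of all 14571 genes that did. The 7 were MRPL3, MRPL14, MRPL43, MRPL47, MRPL52, MRPL58 and MRPS12, and DESeq2 also called 0. The lowest adjusted p was that of MRPL14, 0.0942 (edgeR), at a log2FC, siEA1-1 over siEA1-2, of −0.74 ± 0.22. Without siEA1-2 replicate 2, 2 genes were called, MRPS36 (log2FC −0.83, adjusted p = 0.0162, edgeR) and MRPL35 (−0.42, 0.0489). The genes called with a single siRNA are therefore not shown to respond differently to the pair.

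MRPS25, a small subunit protein without bacterial counterpart (chr3:15009611-15065339, minus strand), was the gene that rose with both siRNAs. It was at 115.2 and 136.2 CPM in control, 176.1 and 174.2 with siEA1-1, and 173.2 and 172.9 with siEA1-2. The 4 knockdown libraries lay close together and above both controls. The log2FC was −0.48 ± 0.10 (adjusted p = 0.00282, edgeR) and −0.46 ± 0.10 (adjusted p = 0.00409, edgeR), levels of 139% and 138% of control. Without control replicate 1 both calls were lost (adjusted p = 0.0534 and 0.0678, edgeR). Of its 18309 exon bases, 7157 overlap exons of NR2C2 on the opposite strand; NR2C2 itself was at a log2FC of −0.12 ± 0.11 and −0.19 ± 0.11 and was not called, and how reads in the overlap were assigned was not tested.

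The other genes that rose did so with 1 siRNA and are named after their values were seen. MRPS11, on the platform of the small subunit, rose with siEA1-1, from 56.1 and 61.5 CPM to 73.0 and 72.1, and was at 71.2 and 68.4 with siEA1-2. MRPL16, MRPL34, MRPL35 and MRPS14, all of bacterial descent, rose with siEA1-2, with log2FC values of −0.34 ± 0.12, −0.40 ± 0.14, −0.39 ± 0.13 and −0.63 ± 0.21. In each of these 5 genes both controls were below all 4 knockdown libraries. In MRPL34 and MRPL35 siEA1-2 replicate 1 was the highest library, at 58.2 and 121.9 CPM against 46.3 and 93.2 in its replicate. None of the 5 kept its call in DESeq2, and each lost its call in at least 3 of the 6 fits without a library, all of them without control replicate 1.

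By subunit, the genes that rose with siEA1-1 were 0 of 50 tested in the large subunit and 2 of 26 in the small. With siEA1-1, 10 large and 5 small subunit genes fell (20.0% and 19.2%), with median log2FC of 0.21 and 0.19. Of all genes tested, 20.4% fell and 20.0% rose with siEA1-1, and 18.3% and 18.7% with siEA1-2. With siEA1-2, 10 large subunit genes fell and 3 rose, and 3 small subunit genes fell and 2 rose, with medians of 0.14 and 0.15. The medians of the subunits were therefore alike. Large subunit genes with a bacterial counterpart had a median of 0.22 with siEA1-1 and those without 0.13, and 0.15 and 0.14 with siEA1-2. In the small subunit the medians were 0.19 and 0.19 with siEA1-1, and 0.10 and 0.21 with siEA1-2.

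Summed over the 78 genes, normalized CPM was 3505 and 3422 in the control libraries, 3041 and 3123 with siEA1-1, and 3345 and 3156 with siEA1-2. Both control sums were above all 4 knockdown sums, and the knockdown means were 89.0% and 93.8% of the control mean. The sum of the large subunit was 86.5% and 92.1% of control, and that of the small subunit 93.3% and 96.3%. The ratio of the large to the small subunit sum was 1.79 and 1.78 in control, 1.65 and 1.66 with siEA1-1, and 1.75 and 1.66 with siEA1-2. These sums are not per length and are led by the most abundant mRNAs.

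Levels per length differed 26.3-fold across the family, although the proteins are assembled into 1 particle. In control, CPM per kb of exon had a median of 13.7 and ran from 2.53 to 66.6. The large subunit had a median of 16.1 and the small subunit 10.2. The highest were MRPL41 at 66.6 ± 0.42 (SD, n = 2), MRPL18 at 56.7 ± 2.2 and MRPS34 at 56.6 ± 11. The SD of MRPS34 spans the means of both others, so its rank among them is not settled. MRPL18 is the protein that sits in the central protuberance of the large subunit. The lowest were MRPL46 at 2.53 ± 0.34, MRPS22 at 2.87 ± 0.29 and MRPL53 at 3.03 ± 0.04, whose ranges touch. Length here is that of all annotated exons joined, which is 16385 bases for MRPS22 and 582 for MRPL41, so genes with long alternative exons come out low.

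None of these 6 was called with either siRNA, although with the replicate number as a block MRPS34 was called with siEA1-1 (adjusted p = 0.0398, edgeR) and MRPL53 with siEA1-2 (0.0494). MRPL41 was at 38.9 and 38.6 CPM in control, 38.8 and 41.5 with siEA1-1, and 48.2 and 38.0 with siEA1-2, with overlap of all groups. MRPS34 was at 70.0 and 53.5 in control and at 46.9 to 51.7 in the 4 knockdown libraries, a log2FC of 0.36 ± 0.14 (adjusted p = 0.0578, edgeR) with siEA1-1, and was called without control replicate 2 (0.0124) or without either siEA1-2 library (0.0252 and 0.0270). MRPL53 was the least abundant gene tested, at 2.10 and 2.06 CPM in control, 2.84 and 3.29 with siEA1-1, and 5.34 and 3.79 with siEA1-2. Its controls were below all knockdown libraries, at a log2FC of −1.12 ± 0.42 (adjusted p = 0.0540, edgeR) with siEA1-2, which passed when at least 10 counts were asked in every library (0.0255). Of its 685 exon bases, 499 overlap CCDC142 on the same strand and 544 a gene on the opposite strand, so its few counts are uncertain.

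**Figure D4:**
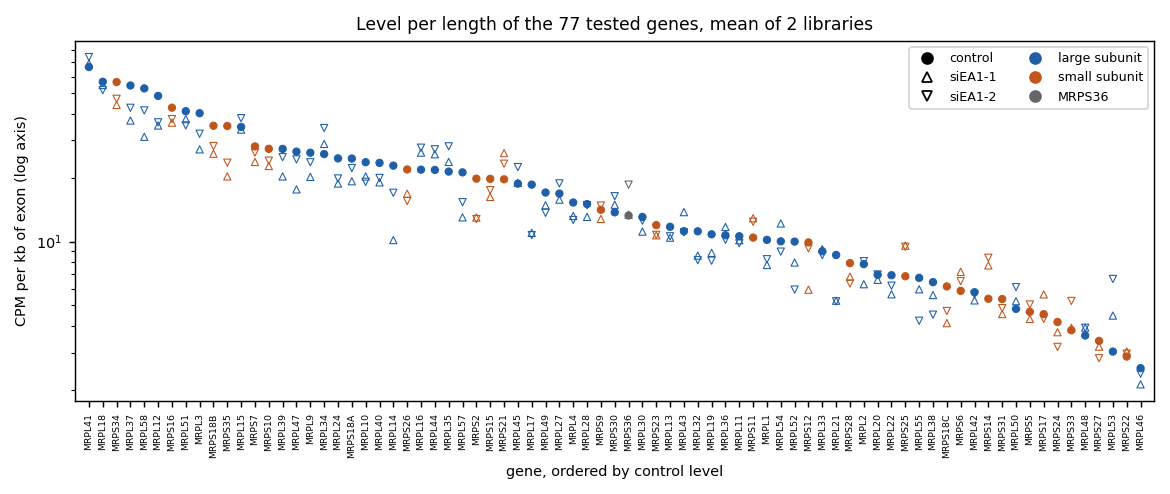
CPM per kb of exon (log axis) of the 77 tested genes, ordered by their control level; filled circles are control, triangles siEA1-1 (up) and siEA1-2 (down), each the mean of 2 libraries, and colours are the subunits. Control levels run from 66.6 for MRPL41 to 2.53 for MRPL46, and most genes keep a similar level in the 3 conditions.

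MRPL23, which encodes a large subunit protein at the exit of the peptide tunnel (chr11:1947278-1984522, hg38), did not pass the filter. It had 8 and 19 counts in the control libraries, 2 and 4 with siEA1-1, and 0 and 0 with siEA1-2. Both controls were above every knockdown library. Over both libraries of a condition, control was 4.10-fold higher than siEA1-1 (95% exact interval 1.66 to 12.1, for counting error only) and at least 8.24-fold higher than siEA1-2, against a floor of 3 counts over the group. With no filter its adjusted p was 0.116 with siEA1-1 and 0.00406 with siEA1-2 (edgeR), and DESeq2 over 3 conditions gave 0.00788 with siEA1-2 and none with siEA1-1, while over only the 4 libraries compared it gave none with siEA1-2 and 0.219 with siEA1-1. Among the fits without a library, the filter kept the gene in all but the one without control replicate 2. It thus passed through the group where it is high, so those fits cannot bear on the call with siEA1-2. Of its exon bases, 85 overlap MRPL23-AS1 on the opposite strand.

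The MRPS18 paralogs are 3 genes for related proteins that occupy different places. MRPS18B, a mitochondria-specific small subunit protein, was at 62.3 and 61.3 CPM in control, 45.8 and 45.5 with siEA1-1, and 50.02 and 49.1 with siEA1-2. The libraries of each condition lay close together and the groups did not overlap. The log2FC was 0.44 ± 0.11 (adjusted p = 0.00845, edgeR) and 0.32 ± 0.11 (adjusted p = 0.0444, edgeR), but the call with siEA1-2 was kept in 0 of the 6 fits without a library and that with siEA1-1 in 3 of 6, being lost without control replicate 1 (0.0512), siEA1-1 replicate 1 (0.0592) or siEA1-1 replicate 2 (0.0520).

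MRPS18C, the bacterial-type paralog of the small subunit, was at 33.1 and 26.7 CPM in control, 18.9 and 21.2 with siEA1-1, and 23.5 and 22.3 with siEA1-2. With 1956 of its 4866 exon bases on the opposite strand of ABRAXAS1 exons, it fell with siEA1-1 at a log2FC of 0.57 ± 0.17 (adjusted p = 0.0182, edgeR), and the call was lost in DESeq2 (0.0564) and without control replicate 1 (0.159) or siEA1-1 replicate 1 (0.141). MRPS18A, in the large subunit, was at 33.7 and 34.6 CPM in control, 26.0 and 27.3 with siEA1-1, and 34.2 and 27.4 with siEA1-2, and was called with neither. MRPS36, of the 2-oxoglutarate dehydrogenase complex, was at 21.0 and 20.4 CPM in control, 20.2 and 21.6 with siEA1-1, and 37.4 and 20.5 with siEA1-2. A single library, siEA1-2 replicate 1, stood above the other 5; without its replicate the gene was called with siEA1-2 (adjusted p = 0.00261, edgeR).

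Lists of other genes for mitochondrial translation are given as counts, to be read against all genes, of which 20.4% fell and 20.0% rose with siEA1-1 and 18.3% and 18.7% with siEA1-2. Most of their shares were at or below these. Of 5 mitoribosomal proteins with other symbols, 0 fell and 0 rose with siEA1-1, and 0 fell and 1 rose with siEA1-2. Of 28 tested assembly and rRNA modification factors, 4 fell and 4 rose with siEA1-1, and 3 fell and 4 rose with siEA1-2. TRUB2 and RPUSD3, pseudouridine synthases that act on mitochondrial RNA, rose with both, at log2FC of −1.48 ± 0.11 and −1.45 ± 0.11 for TRUB2 and −1.28 ± 0.12 and −1.03 ± 0.12 for RPUSD3. NDUFAB1, the mitochondrial acyl carrier protein, rose too (−0.69 ± 0.14 and −0.84 ± 0.14).

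Of 17 translation factors, 1 fell with each siRNA, LRPPRC, which stabilizes mitochondrial mRNAs (log2FC 0.36 ± 0.11 and 0.33 ± 0.11), and 0 and 2 rose. Of 19 tested aminoacyl-tRNA synthetases and related enzymes, 1 and 0 fell and 2 and 3 rose, among them GATC (−0.86 ± 0.13 and −0.90 ± 0.13) and AARS2 (−0.75 ± 0.09 and −0.57 ± 0.09). Of 12 genes for transcription and replication of mitochondrial DNA, 2 and 3 fell and 0 rose; TFAM, the packaging and transcription factor, was at 0.93 ± 0.11 and 1.03 ± 0.11, and TWNK, the replicative helicase, at 0.50 ± 0.18 and 0.86 ± 0.18. Of the 13 mRNAs encoded by mitochondrial DNA, which the mitochondrial ribosome translates, 2 fell with siEA1-1 and 0 with siEA1-2, the latter with 0 at an unadjusted p under 0.05 as well. Their summed CPM was 52819 and 38421 in the control libraries, a spread wider than the difference between conditions.

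Of the 75 tested nuclear genes for oxidative phosphorylation subunits, 0 fell with either siRNA, and 13 (17.3%) and 31 (41.3%) rose, beside 20.0% and 18.7% of all genes, with median log2FC of −0.21 and −0.38. The larger count depended on siEA1-2 replicate 1, the library that stood apart in the sum of these genes. A fit without it, added after the data were seen, called fewer of them as rising with siEA1-2 and more with siEA1-1. The numbers called over all genes moved in the same directions in that fit, so the shares above are not its background. UQCR10 (−0.65 ± 0.15 and −0.76 ± 0.15), NDUFS7 (−0.56 ± 0.19 and −0.70 ± 0.19) and COX8A (−0.67 ± 0.14 and −0.50 ± 0.14) were called with both. Of 79 cytosolic ribosomal protein genes, 11 (13.9%) and 10 (12.7%) fell, beside 20.4% and 18.3% of all genes, and 2 and 1 rose, with medians of 0.11 and 0.15. RPL4 (0.74 ± 0.10 and 0.40 ± 0.10) and RPL14 (0.38 ± 0.10 and 0.49 ± 0.10) fell, and RPS28 (−0.44 ± 0.11 and −0.43 ± 0.11) rose. The differences between lists were not tested, and many cytosolic ribosomal protein genes have near-identical pseudogenes that can take their reads.

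**Figure D5:**
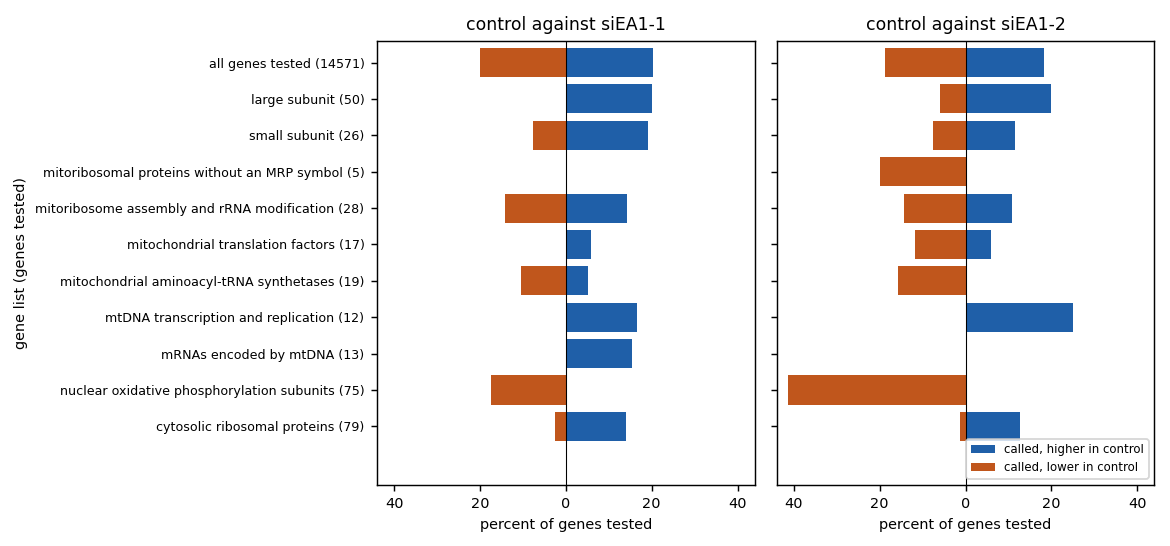
Percent of the tested genes of each list (number tested in brackets) that were called, to the right those higher in control and to the left those lower in control, for siEA1-1 (left panel) and siEA1-2 (right panel). Nuclear oxidative phosphorylation genes extend only to the left (17.3% and 41.3%), and the large subunit mostly to the right (20.0% in each). All genes tested extend 20.4% and 18.3% to the right, and 20.0% and 18.7% to the left.

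Many of these genes start near a neighbour on the opposite strand, a description chosen after the data were seen. Whether they share a promoter was not tested. In 24 pairs, with 25 of the 78 genes, the annotated start of a tested protein-coding gene on the opposite strand lay within 1000 bases. With siEA1-1 both genes of 3 pairs fell, MRPL21 with IGHMBP2, MRPL57 with SKA3 and MRPS18B with PPP1R10, and with siEA1-2 both genes of 2 pairs, MRPL21 with IGHMBP2 and MRPL57 with SKA3. In 0 pairs were the genes called in opposite directions. Of the 24 neighbours, 8 fell and 1 rose with siEA1-1, and 6 and 1 with siEA1-2. Over all genes 20.4% fell and 20.0% rose with siEA1-1, and 18.3% and 18.7% with siEA1-2. The pairs are few, and whether paired genes change together was not tested. The neighbour alone was called in 6 and 5 pairs, counting MRPS11 as the neighbour of MRPL46: EME1, a DNA repair gene beginning 13 bases from MRPL27, had a log2FC of 2.17 and 1.11 where MRPL27 had 0.10 and −0.16, and MTBP, 2 bases from MRPL13, had 1.36 and 1.11 where MRPL13 had 0.17 and 0.15. The mitochondrial ribosomal protein gene alone was called in 4 and 2 pairs. MRPL46 and MRPS11, a pair within the family with starts 63 bases apart, had log2FC values of 0.25 and −0.30 with siEA1-1, of which MRPS11 was called.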

How the data were processed

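RNA-seq libraries from SU-CCS-1 (stranded, poly(A)-selected mRNA kit) were sequenced by the authors. Reads were aligned to hg38 with BWA-MEM, which does not model spliced reads, and counted per gene with featureCounts 1.6.3; the deposited values are raw counts, neither normalized nor pooled. The annotation, use of strand, filter on low counts and treatment of multimapping reads are not given in the sources used here. Exons of 30 of the 78 genes overlap exons on the opposite strand, and those of 18 overlap another gene on the same strand.

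Groups came from the sample titles. Genes were filtered with filterByExpr (minimum count 10, minimum total 15) and scaled by TMM, and the robust quasi-likelihood model of edgeR 4.0.16 (R 4.3.3) was fitted to the deposited counts over 3 conditions (3 residual degrees of freedom), with Benjamini-Hochberg adjustment over 14571 genes. Contrasts were control against each EA1 siRNA, control against their mean, and the siRNAs against each other. CPM are TMM-scaled. Exon length, GC content and coordinates came from GENCODE 44 on hg38, and promoter sequence from RefSeq. Alternatives were other filters, normalizations (RLE, upper quartile, library totals), DESeq2 1.42.0 over 3 conditions or 4 libraries, GC and length correction, the replicate block, the knockdown libraries as 1 condition, and leaving out each library; for the oxidative phosphorylation genes, the fit without siEA1-2 replicate 1, and for MRPL23, the fits that keep it, were added after seeing the data. Scripts were tested on simulated data.

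The genes, gene lists and tests were chosen with earlier results of these data known. Named genes are the 6 called with both siRNAs with the largest log2FC in each direction, any called between siRNAs, the 3 highest and 3 lowest per kb, any that failed the filter, and MRPS18A, MRPS18B, MRPS18C, MRPL12, MRPL58 and MRPS36, plus up to 3 a list elsewhere; others are marked as chosen after their values were seen. Neither promoter matches nor gene lists were tested.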

Additional observations from a re-analysis of the deposited data

How the results depend on the processing

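No median log2FC of the 77 genes and no call of the single genes rerun changed sign; the other gene lists were not rerun, except the oxidative phosphorylation genes without siEA1-2 replicate 1. With siEA1-1, the 2 genes that rose became 1 with no filter, RLE factors, library totals and both DESeq2 fits (over 3 conditions and over 4 libraries) and 6 with upper quartile factors, which also gave a median log2FC of 0.143. With siEA1-2, the 13 that fell became 8 (DESeq2, 3 conditions) and 4 (DESeq2, 4 libraries), and the 5 that rose became 3 (library totals), 8 (GC and length correction with the replicate block) and 1 (both DESeq2 fits); the median became 0.203 (library totals) and 0.10 (GC and length correction, with or without the block). For the mean of both, the 4 that rose became 2 (library totals), 7 (upper quartile), 8 (GC and length with the block) and 1 (DESeq2). Between the siRNAs, GC and length correction with the block called 1 gene, MRPL14 (adjusted p = 0.0362, edgeR), and library totals gave a median of −0.037. The numbers called over all genes moved between these settings too, and the cause was not tested.

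Leaving out 1 library at a time gave 9 to 22 genes that fell and 1 to 3 that rose with siEA1-1 (median 0.174 to 0.23), 5 to 14 and 0 to 7 with siEA1-2 (0.104 to 0.207), 9 to 26 and 1 to 7 for the mean of both (0.152 to 0.239), and 0 to 2 called between the siRNAs (median −0.087 to −0.049). A condition left with 1 library is assumed to vary like the others. The numbers called over all genes moved in these fits as well. Of the called genes, 7 of 17 with siEA1-1, 3 of 18 with siEA1-2 and 8 of 20 for the mean of both were called in every setting.

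Replicate numbers are shared across conditions, and deviations of same-numbered libraries correlated at 0.13, 0.199 and 0.144 over 2 replicates, which does not establish pairing. With the replicate block, 19 genes fell and 3 rose with siEA1-1, 16 and 7 with siEA1-2, 19 and 5 for the mean of both, and 0 differed between siRNAs. In the block MRPS34 (siEA1-1, adjusted p = 0.0398, edgeR) and MRPL53 (siEA1-2, adjusted p = 0.0494, edgeR) were called.

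Within 100 bases before to 50 after the start, the E-box was in 4.35% of the 69 genes (7.96% of tested coding genes), now below that background, the CCAAT box in 18.8% (30.2%), the NRF1 core in 2.90% (2.98%), and the YY1 and ETS letters in 27.5% (5.38%) and 37.7% (17.7%). With 2 libraries a condition, totals of 5942808 to 7599305 counts and standard errors near 0.15, most differences of the median size could not be called.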
